A study of Homo sapiens with 14 samples.

Results

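Splice events of 9 genes of homologous recombination (HR) and the Fanconi anemia pathway, BRCA1, BARD1, PALB2, BRCA2, RBBP8, BRIP1, FANCA, FANCI and FANCD2, were compared between SF3B1-mutant (MT) and wild-type (WT) HEK293T cells. All events listed for these gene symbols were taken when the mean of the WT and MT read means was at least 10, which gave 289 of the 307 listed for these genes and 94061 of the 114349 in the whole table over the same minimum. The event just inside that minimum was a FANCI cassette exon with 12.4 reads, and the one just outside was a FANCI exon pair with 9.33 reads. HEK293T is an epithelial line from human embryonic kidney. The WT cells carried SF3B1 K700K and the MT cells SF3B1 K700E at the endogenous locus of an isogenic line, both untreated, with 3 RNA-Seq libraries of total RNA per genotype. Nothing in the labels says that the libraries came from separate cultures or clones, so the p-values measure only the spread between these libraries, which may be technical.

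SF3B1 is the subunit of the U2 snRNP that contacts the branch site, and K700E is a hotspot substitution that is known to favor cryptic 3′ splice sites upstream of the usual ones. HR repairs DNA double-strand breaks with the sister chromatid as template. RBBP8 (CtIP) starts resection of the broken end, the BRCA1-BARD1 ubiquitin ligase works at that end, PALB2 bridges BRCA1 to BRCA2, and BRCA2 prepares the resected strand for the search for its template. At interstrand crosslinks, the Fanconi core complex, which includes FANCA, ubiquitinates FANCI and FANCD2, and BRIP1 is a helicase that binds BRCA1.

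The table gave an inclusion level for each event and library. It is the fraction of the longer form, or of the first of a pair of exons, among reads per length of both forms. It holds splice events and no gene expression values, so markers of HEK293T cells were not checked. Over the 61359 events with intact counts in all 6 libraries, junction reads per library ranged from 3536380 to 4751176. Mean level differences between libraries of the same genotype (0.0467) were about as large as those between genotypes (0.0464), and the nearest library was of the same genotype for 1 of the 6. For 4 of the 6 it was the library of the other genotype with the same number. Beyond the 3 MT columns, the table lists 6 MT values per event. These columns equal the first, second and sixth entries of that list in all 114349 events, but whether they correspond to the study's 3 MT samples could not be settled. As a scale for a called event, the upstream 3′ splice site of SERBP1 had levels of 0.461, 0.5 and 0.509 in WT libraries and 0.801, 0.757 and 0.805 in MT.

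Because K700E is known for its effect on 3′ splice sites, the 8 alternative 3′ splice site events of the 9 genes were examined first. In 5 of them the competing acceptors lay within 15 bases of each other, and their sequences are shown because these acceptors lie closest together. The distance between the SERBP1 acceptors was not examined, so these sites are not taken as its equivalents. Each window holds 20 intron bases and 3 exon bases of GRCh38, 5′ to 3′ on the strand of the gene, and the capitals mark the AG at the end of the intron.
BRCA1 exon 13, upstream acceptor, chr17:43076612-43076634, minus strand: ttttctcattccatttaaAGcag
BRCA1 exon 13, downstream acceptor, chr17:43076609-43076631, minus strand: tctcattccatttaaagcAGtat
BRCA1 exon 7, upstream acceptor, chr17:43099878-43099900, minus strand: ttctttaccatactgtttAGcag
BRCA1 exon 7, downstream acceptor, chr17:43099875-43099897, minus strand: tttaccatactgtttagcAGgaa
RBBP8, upstream acceptor, chr18:23001551-23001573, plus strand: tgcttattgccctaagccAGtgc
RBBP8, downstream acceptor, chr18:23001566-23001588, plus strand: gccagtgctcttttacatAGatg
FANCA exon 4, upstream acceptor, chr16:89811069-89811091, minus strand: ggttttgttttgtgtttaAGgct
FANCA exon 4, downstream acceptor, chr16:89811055-89811077, minus strand: tttaaggctctgctttgcAGgat
FANCI exon 32, upstream acceptor, chr15:89305987-89306009, plus strand: ccaattttatttccctttAGaag
FANCI exon 32, downstream acceptor, chr15:89305990-89306012, plus strand: attttatttccctttagaAGagg

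At BRCA1 exon 13, where the AGs lie 3 bases apart, the upstream acceptor had levels of 0.786, 0.766 and 0.868 in WT libraries and 0.749, 0.770 and 0.702 in MT. The libraries overlapped, and the difference of -0.0663 (95% interval -0.149 to 0.0166, n = 3 per genotype) did not pass the limma test (adjusted p = 0.856). At BRCA1 exon 7, also with 3 bases between the AGs, levels of 0.777, 0.807 and 0.822 in WT, against 0.832, 0.834 and 0.819 in MT libraries gave a difference of 0.0263 (95% interval -0.00587 to 0.0585). Both tandem acceptors were thus used in all 6 libraries, mainly the upstream one.

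In RBBP8, an upstream AG lies 15 bases before the acceptor of the canonical transcript, in its intron, and 1 annotated transcript uses it. That AG was close to unused, at 0.009, 0.012 and 0.022 in WT libraries and at 0, 0.012 and 0 in MT. The difference was -0.0103 (95% interval -0.0298 to 0.00916), and all 3 MT values were at or below the middle WT value. At FANCI exon 32, again with AGs 3 bases apart, the upstream acceptor had levels of 0.992, 0.983 and 0.985 in WT libraries and 0.979, 0.974 and 1 in MT. At FANCA exon 4, the upstream acceptor had a level of 1 in every library but a single MT one at 0.960. The other 3 events, at RBBP8 exon 9, FANCA exon 42 and FANCI exon 16, had levels of 0.965 or higher in every library. None of the 8 events passed the limma test or had WT and MT libraries apart, and 0 of 8 had an unadjusted p under 0.05. The 95% interval of the difference lay within 0.1 of 0 in 7 of the 8, all but BRCA1 exon 13.

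**Figure D1:**
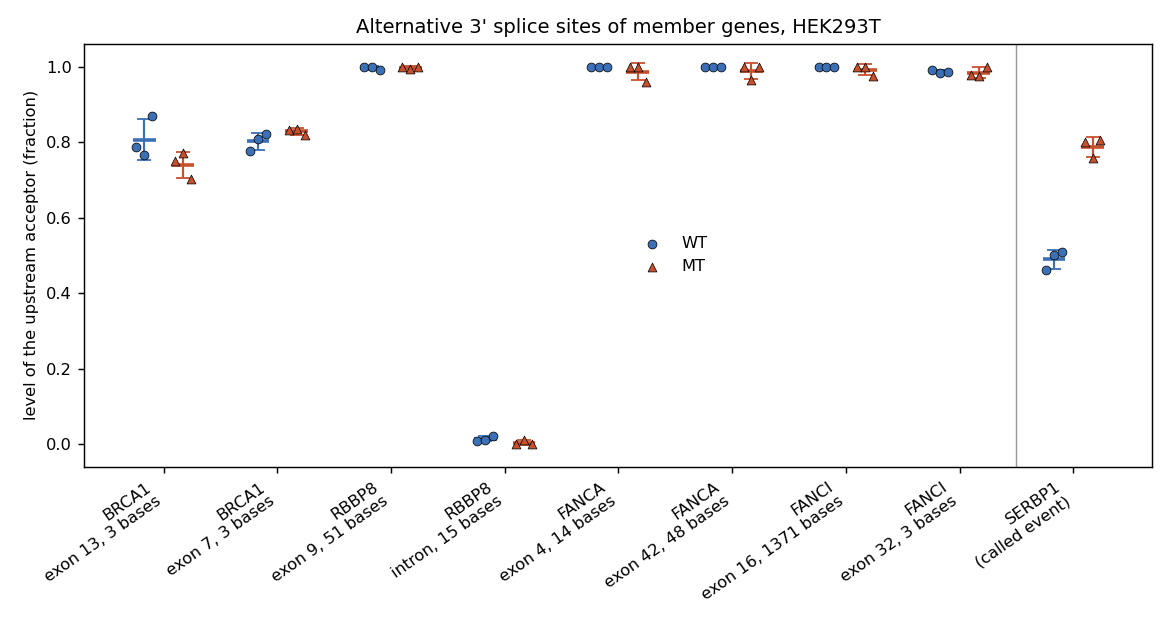
Level of the upstream acceptor (fraction, y axis) in the 3 WT (circles) and 3 MT (triangles) HEK293T libraries for the 8 alternative 3′ splice sites of the 9 genes and, right of the line, the called SERBP1 event; bars show mean and SD, and the number of bases is the distance between the acceptors. The SERBP1 libraries are apart, between 0.461 and 0.509 in WT and between 0.757 and 0.805 in MT, and those of the 8 events overlap.

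Of the 289 events, 203 were cassette exons and 65 were pairs listed as mutually exclusive exons. The others were 12 alternative 5′ splice sites, 8 alternative 3′ splice sites and 1 retained intron. For all 65 pairs an annotated transcript holds both exons, and for 15 of them none holds 1 exon alone. The level of a pair is the share of its first exon and does not by itself show skipping of either exon. The cassette events covered 135 distinct exons, since an exon is listed once for each pair of neighbors, and 169 of them lay in coding exons of the canonical transcript. Splicing of these genes was mostly uniform. In 181 events the mean level was at least 0.95 in both genotypes, in 16 it was at most 0.05 in both, and 92, exon pairs among them, lay between. The level was identical in all libraries for 33 events, which left 256 with a test.

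None of the 256 events was called at an adjusted p under 0.05 with a difference above 0.1 (limma on arcsine-transformed levels, Benjamini-Hochberg adjustment over the whole table, lowest adjusted p 0.856), beside 0.0311% of all 83581 events tested. Those were 26 events, 11 higher in MT (0.0132%) and 15 lower (0.0179%). At an unadjusted p under 0.05 there were 14 of 256, or 5.47%, beside 4.47% of all events. The test on junction counts called 0 of 251 events (lowest adjusted p 0.628), with 13 at an unadjusted p under 0.05, where 0.0431% of all events were called and 5.78% had such a p. The differences were small: the median absolute difference was 0.0095, against 0.0137 over all events, at a median of 137.75 and 82.4 reads. It exceeded 0.1 in 10 events, and the 95% interval lay within 0.1 of 0 in 187 of 256 (73.0%), beside 62.3% of all events. For the others, a difference of 0.1 was not excluded at this depth. By direction, 120 events had a higher mean in MT, 133 a lower one and 3 the same.

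**Figure D2:**
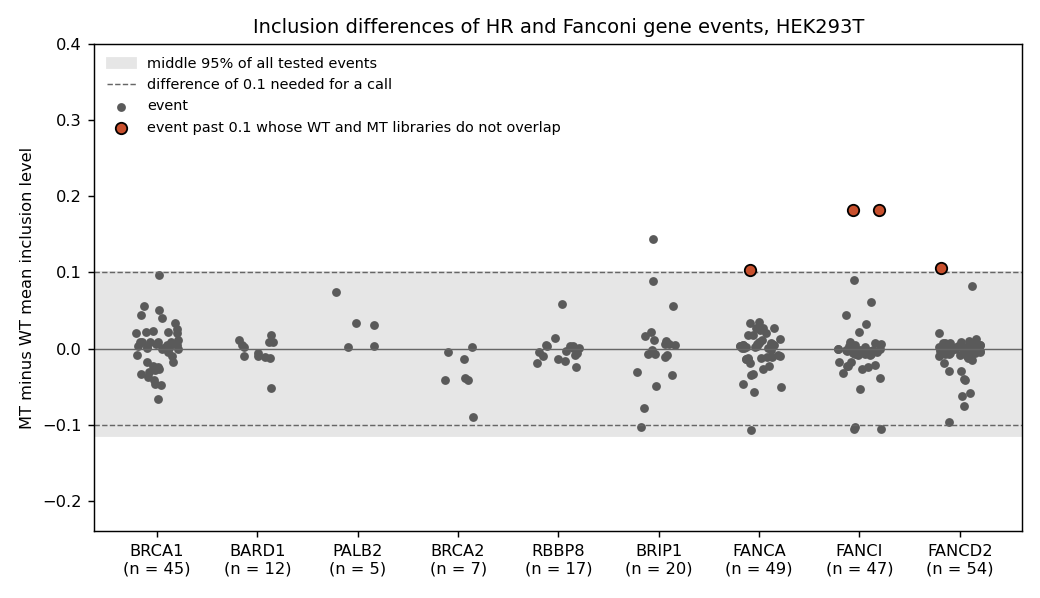
Difference in mean inclusion level (MT minus WT, y axis) of the 256 tested events by gene in HEK293T; the shaded band spans the middle 95% of all 83581 tested events, from -0.115 to 0.1, and dashed lines mark 0.1 in each direction. Most events lie near 0, and the large points are the 4 events past 0.1 whose WT and MT libraries do not overlap, 2 of them in FANCI.

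All WT and all MT libraries were apart, with a difference above 0.1, in 4 of the 256 events (1.56%), beside 1.73% of all events tested. All 4 were higher in MT, where 0.748% of all events were apart and higher and 0.977% apart and lower. They were 2 cassette exons of FANCI and 1 exon pair each of FANCA and FANCD2. On junction counts (quasi-binomial test), their unadjusted p was 0.0214 and 0.0287 in FANCI, 0.0110 in FANCA and 0.0142 in FANCD2. The adjusted p of each was 0.628 in that test.

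The largest differences of the 9 genes were at the start of FANCI, the partner of FANCD2 in the complex that the core ubiquitinates. Intron 1 of the canonical transcript (plus strand of chromosome 15) holds an exon of 117 bases at chr15:89245195-89245311, found in 2 of 27 annotated transcripts, and one of 84 bases at chr15:89245756-89245839, found in 1. Both lengths are multiples of 3. Splice sites of these exons are shown because they carry the differences. The acceptor window is as above, and the donor windows hold 3 exon bases and 6 intron bases with the GT in capitals.
FANCI 84-base exon, acceptor, chr15:89245736-89245758: ttattttatccttacttaAGggt
FANCI 117-base exon, donor, chr15:89245309-89245317: cagGTgcgt
FANCI 84-base exon, donor, chr15:89245837-89245845: cagGTttgt

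Each exon was listed with 3 first-exon donors, at positions 89244033, 89244044 and 89244067, which are called the first, the second and the third donor here. All of these events end at the same downstream exon. From the second donor, the 117-base exon had levels of 0.237, 0.227 and 0.302 in WT, against 0.364, 0.429 and 0.520 in MT libraries. Every MT library was above every WT library, with a difference of 0.182 (95% interval 0.0657 to 0.299, n = 3 per genotype). It did not pass the test (limma, unadjusted p = 0.0636, adjusted p = 0.856). A two-sided exact permutation test gave p = 0.1, the smallest that 3 libraries against 3 allow.

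From the same donor, the 84-base exon had levels of 0.312, 0.331 and 0.435 in WT libraries and 0.467, 0.454 and 0.703 in MT, a difference of 0.182 (95% interval -0.0159 to 0.380) that was 0.101 without MT replicate 3. These values rest on few reads. The junction that skips both exons from that donor had 29, 17 and 15 reads in WT libraries and 21, 12 and 6 in MT, and the 84-base exon had 25, 16 and 22 inclusion reads in WT, against 35, 19 and 27 in MT libraries. The same skipping reads serve both events, which are therefore not independent.

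From the third donor, with more reads, the 84-base exon had levels of 0.108, 0.109 and 0.122 in WT libraries and 0.189, 0.204 and 0.218 in MT. The libraries were apart, and the difference of 0.0907 (95% interval 0.0660 to 0.115) was under the 0.1 needed for a call. The 117-base exon had levels of 0.081, 0.088 and 0.089 in WT libraries and 0.161, 0.174 and 0.108 in MT, a difference of 0.0617 (95% interval 0.0149 to 0.108). From the first donor the differences were 0.0440 for the 117-base exon and 0.0327 for the 84-base exon, and for the latter the libraries overlapped, at 0.270, 0.213 and 0.345 in WT, against 0.320, 0.212 and 0.394 in MT libraries. All 6 listings were thus higher on average in MT, and the adjusted p was 0.856 to 0.895 (limma). The 6 listings share inclusion reads of 2 exons. Listed with other neighbors, the libraries overlapped. The 117-base exon before the 84-base exon (12.4 reads) and the 84-base exon after a longer first exon (24.7 reads) each had a difference of -0.106, and the 84-base exon after the 117-base exon had levels of 0.464, 0.486 and 0.513 in WT libraries and 0.481, 0.408 and 0.568 in MT.

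**Figure D3:**
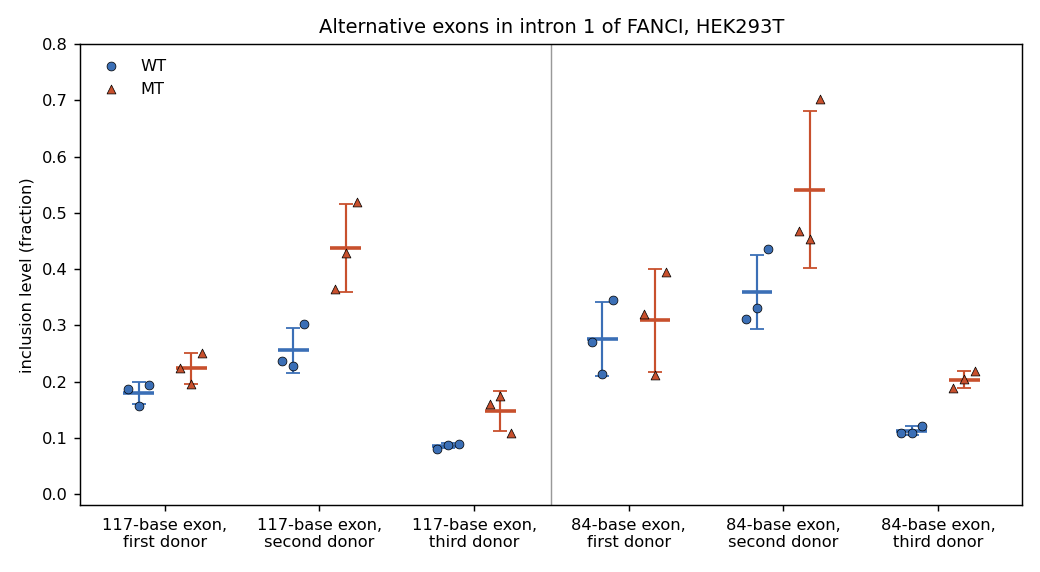
Inclusion level (fraction, y axis) of the 117-base and 84-base exons in intron 1 of FANCI from each of 3 first-exon donors, in the 3 WT (circles) and 3 MT (triangles) HEK293T libraries, with mean and SD. The MT mean is above the WT mean in all 6 listings, and the libraries overlap for the 84-base exon from the first donor.

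Elsewhere in FANCI, the retained intron of 1300 bases at chr15:89281836-89283135 had levels of 0.193, 0.202 and 0.474 in WT libraries and 0.165, 0.130 and 0.266 in MT. The libraries overlapped, with 1 MT value above 2 of the WT values, and the difference was -0.103 (95% interval -0.324 to 0.118). The longer of 2 donors of exon 2, which lie 5 bases apart, had levels of 0.739, 0.819 and 0.794 in WT, against 0.754, 0.838 and 0.739 in MT libraries, so both donors were in use in both genotypes. Coding exon 5, the event with the most reads of the 9 genes (mean 563), was included at 1 in 5 libraries and at 0.996 in the other.

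FANCD2 exons 21 and 22, at chr3:10063792-10063911 and chr3:10064356-10064429 on the plus strand, were a pair with libraries apart. The share of exon 21 in the pair had levels of 0.537, 0.538 and 0.519 in WT libraries and 0.553, 0.610 and 0.748 in MT. The difference was 0.106 (95% interval -0.0220 to 0.233; limma, unadjusted p = 0.0277, adjusted p = 0.856). It was 0.0502 without MT replicate 3, the library with the highest level. In that library exon 22 as a cassette was included at 0.616, beside 0.941 and 0.873 in the other MT libraries and 0.920, 0.927 and 0.871 in WT. All 7 annotated transcripts that hold either exon hold both, and exon 21 as a cassette was included at 0.981 or more in every library. The event of FANCD2 with the most reads, coding exon 3, had levels between 0.988 and 0.996 in the 6 libraries. FANCD2 has an unprocessed pseudogene, FANCD2P2, on the same chromosome. Their sequences were not compared, and how the counting treated reads that fit both is not given in the sources used here.

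In FANCA, the exon pair with libraries apart was exons 4 and 5 at chr16:89810929-89811071 and chr16:89810707-89810802 on the minus strand. The share of exon 4 in the pair had levels of 0.375, 0.344 and 0.444 in WT libraries and 0.547, 0.458 and 0.468 in MT. The difference was 0.103 (95% interval 0.0133 to 0.193) and did not pass the test (limma, unadjusted p = 0.0530, adjusted p = 0.856). As a cassette, exon 4 was included at 1 in all 6 libraries in both of its listings, and 24 annotated transcripts hold both exons, 2 exon 4 alone and 2 exon 5 alone. Exon 5 had no cassette listing among these events. FANCA exon 30 was the coding exon of this gene with substantial skipping, at 0.660, 0.769 and 0.815 in WT, against 0.815, 0.782 and 0.750 in MT libraries, with overlapping libraries and a difference of 0.0343. A donor 4 bases beyond another one in the intron before exon 42, where the nearer donor starts with GC, had levels of 0.224, 0.237 and 0.218 in WT libraries and 0.213, 0.203 and 0.225 in MT, a difference of -0.0127 (95% interval -0.0402 to 0.0149).

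In BRCA1, 22 of 50 events had neither form at 0.95 or more in both genotypes, and no difference of its 45 tested events exceeded 0.1. Exon pairs made up 15 of the 50. The long donor of exon 10, the large central coding exon, retains 3309 bases that the short donor removes. It had levels of 0.894, 0.924 and 0.920 in WT libraries and 0.907, 0.882 and 0.851 in MT, and with a difference of -0.0327 (95% interval -0.0748 to 0.00947) the libraries overlapped. Exon 9 was included at 0.732, 0.864 and 0.792 in WT, against 0.873, 0.793 and 0.842 in MT libraries, and exon 8 at 0.710, 0.890 and 0.806 in WT libraries and at 0.851, 0.811 and 0.843 in MT. For both exons the WT libraries spread more widely than the MT libraries and the genotypes overlapped. The longer of 2 donors of the untranslated exon 1 was used at 0.497, 0.538 and 0.507 in WT libraries and at 0.502, 0.413 and 0.536 in MT. The largest difference of the gene was that of the pair of exons 13 and 15, where exon 13 had levels of 0.923, 1 and 0.786 in WT and 1 in each MT library at a mean of 20.8 reads. The difference was 0.0970 (95% interval -0.0473 to 0.241), and it was 0.0385 without WT replicate 3 and 0.146 without WT replicate 2.

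**Figure D4:**
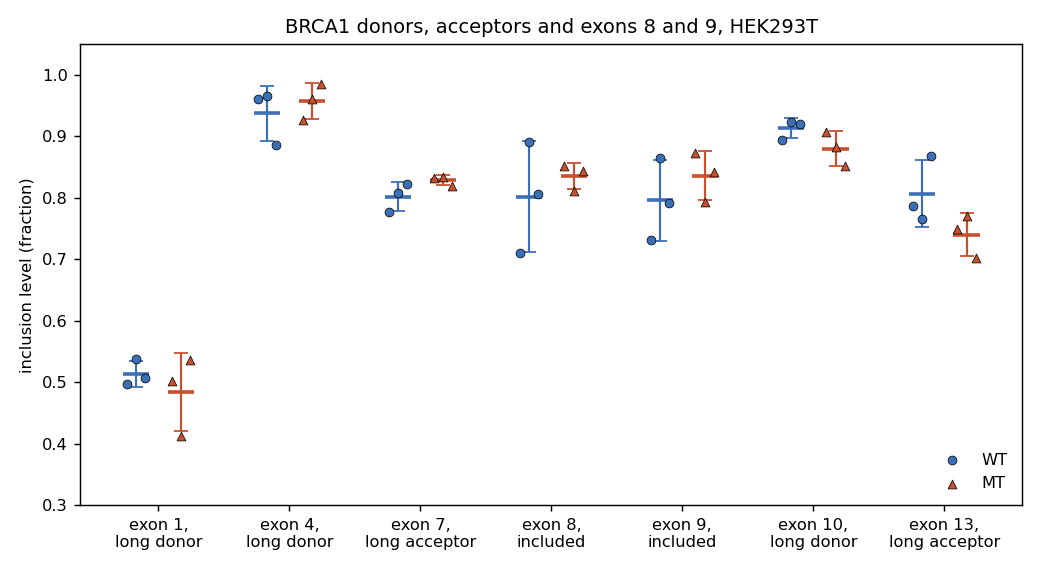
Inclusion level (fraction, y axis, from 0.3) of the long donors of BRCA1 exons 1, 4 and 10, the upstream acceptors of exons 7 and 13 and the cassette exons 8 and 9, in the 3 WT (circles) and 3 MT (triangles) HEK293T libraries, with mean and SD. The WT libraries spread most for exon 8, from 0.710 to 0.890, and the means of exon 10 differ by -0.0327.

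BARD1, the RING partner of BRCA1, had 12 tested events with differences between -0.0520 and 0.0177. The lowest was that of coding exon 3, at chr2:214792297-214792445, with levels of 1, 0.957 and 0.980 in WT, against 0.929, 0.889 and 0.963 in MT libraries. A single MT library fell within the WT range, and the difference had a 95% interval of -0.107 to 0.00338 (limma, unadjusted p = 0.0189, adjusted p = 0.856). The 950-base exon 4, the BARD1 exon with the most reads, was skipped at times in every library, with levels of 0.868, 0.925 and 0.897 in WT libraries and 0.906, 0.892 and 0.860 in MT.

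PALB2 had only 5 tested events, with a median of 36.75 reads, and their differences ranged from 0.00233 to 0.0740, all higher in MT. The largest was a 134-base exon in an intron of the canonical transcript, found in 2 annotated transcripts, with levels of 0, 0.136 and 0.032 in WT libraries and 0.189, 0.083 and 0.118 in MT. These libraries overlapped, and the 95% interval was -0.0474 to 0.195. Coding exon 7 was included at 0.974 or more in each library.

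In BRCA2, 6 of the 7 tested events had a lower mean in MT and 1 a higher one. Coding exon 12, of 96 bases at chr13:32344558-32344653 on the plus strand, had levels of 1, 0.933 and 0.880 in WT, against 0.909, 0.846 and 0.789 in MT libraries. The genotypes overlapped, with a difference of -0.0897 (95% interval -0.199 to 0.0194; limma, unadjusted p = 0.0323, adjusted p = 0.856), or -0.0585 without WT replicate 1. The skipping reads behind these levels were 0, 2 and 7 in WT libraries and 3, 3 and 6 in MT. Coding exon 3, with an annotated length of 249 bases, was included at 1, 1 and 0.983 in WT libraries and at 0.939, 0.944 and 0.976 in MT, which were apart by less than 0.1 at a difference of -0.0413. This exon was named after its values were seen, and the share of all events apart by less than 0.1 was not counted.

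In RBBP8, the resection factor, the 95% intervals lay within 0.1 of 0 in 15 of 17 tested events. The largest difference, 0.0587 (95% interval 0.0161 to 0.101), was that of exons 17 and 18, where exon 17 had levels of 0.458, 0.510 and 0.505 in WT, against 0.550, 0.566 and 0.533 in MT libraries. Every MT library was above every WT library, by less than the 0.1 needed for a call (limma, unadjusted p = 0.171, adjusted p = 0.856). Of 16 annotated transcripts, 4 hold both exons and 2 hold exon 18 alone. The neighboring pair of exons 16 and 17, with the most reads of the gene, had levels of 0.457, 0.508 and 0.564 in WT libraries and 0.476, 0.496 and 0.484 in MT. RBBP8 also has a processed pseudogene, RBBP8P1, on chromosome X.

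BRIP1, the helicase, had its largest difference in an 89-base exon within an intron of the canonical transcript, at chr17:61783819-61783907. It was at 0 in the 3 WT libraries and at 0, 0.338 and 0.093 in the MT libraries. The value of 0.338 came from 3 inclusion and 3 skipping reads and that of 0.093 from 2 and 10. The difference of 0.144 had a 95% interval of -0.0792 to 0.366 (limma, unadjusted p = 0.0143, adjusted p = 0.856). Without MT replicate 2 it was 0.0465. Coding exon 5, with a mean of 206 reads, was included at 0.959, 0.978 and 0.986 in WT libraries and at 0.951, 0.948 and 0.875 in MT, all 3 below the WT values and with a difference of -0.0497 (95% interval -0.107 to 0.00811). Like BRCA2 exon 3, it was named after its values were seen, with no such share counted over all events.

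The table holds no expression values, and junction reads per gene were therefore set beside the levels as a description. Summed over the intact events of a gene and taken as a share of the library's junction reads, the log2 ratio of MT to WT ranged from -0.31 for BRCA2 to 0.25 for RBBP8, and for each of the 9 genes WT and MT libraries overlapped. A read can count in more than 1 event. The intact events were 7 of 17 tested in RBBP8, 19 of 47 in FANCI, 31 of 54 in FANCD2 and 29 of 45 in BRCA1. They were all those tested in BARD1, BRCA2 and PALB2. In BRCA1, BRIP1, FANCA, FANCD2, FANCI and RBBP8 the event with the most reads was left out, its MT replicate 3 count not being intact.

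Pathway genes beyond these 9 were examined from a list ordered by role. Of 550 tested events in 45 genes, 0 were called by limma, with 36 at an unadjusted p under 0.05 (6.55%, beside 4.47% of all events), and 11 (2%) had libraries apart by more than 0.1, beside 1.73%. By the test on junction counts, 1 of 535 was called. By role, the events apart were 4 of 63 in the BRCA1-A complex, 4 of 148 among strand exchange factors and 3 of 89 in end sensing and resection. There were 0 of 124 in the Fanconi core complex and its cofactors, 0 of 60 in Fanconi incision and downstream factors and 0 of 66 in dissolution and resolution. Those of the BRCA1-A complex include overlapping listings of 1 gene, UIMC1.

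The single difference of these that passed a test was in RAD51AP1, an accessory factor of strand exchange. Its splice sites are shown because it is the only event of the 9 genes and the list called by either test.
RAD51AP1 51-base exon, acceptor, chr12:4545762-4545784, plus strand: ccctcctcctttaattgcAGact
RAD51AP1 51-base exon, donor, chr12:4545830-4545838, plus strand: aaaGTaagt

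This exon of 51 bases, at chr12:4545782-4545832 in an intron of the canonical transcript and found in 3 annotated transcripts, had levels of 0.143, 0.194 and 0.175 in WT, against 0.449, 0.403 and 0.393 in MT libraries. The MT libraries were all above the WT libraries, with a difference of 0.244 (95% interval 0.192 to 0.297). It was not called by limma (adjusted p = 0.331) and was called by the quasi-binomial test on junction counts with Benjamini-Hochberg adjustment (adjusted p = 0.0491). Inclusion reads were 9, 23 and 22 in WT libraries and 39, 48 and 38 in MT, against 35, 62 and 67 and 31, 46 and 38 skipping reads. With other neighbors the same exon was listed at a difference of 0.109, 0.0863 and -0.0157, at means of 10.75 to 20.75 reads. RAD51AP1 also has a processed pseudogene, RAD51AP1P1, on chromosome 3.

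In UIMC1 (RAP80), the ubiquitin-binding subunit of the BRCA1-A complex, a 106-base coding exon had levels of 0.791, 0.818 and 0.849 in WT libraries and 0.764, 0.662 and 0.643 in MT, a difference of -0.130. A 737-base exon of the same gene had 0.594, 0.5 and 0.692 in WT, against 0.469, 0.386 and 0.312 in MT libraries, a difference of -0.206. The 106-base and 737-base events share their skipping reads. A 239-base exon inside the 737-base one had 0.755, 0.676 and 0.750 in WT, against 0.633, 0.570 and 0.531 in MT libraries, a difference of -0.149. The events apart in the BRCA1-A complex thus count this region of UIMC1 more than once. In EXO1, a resection nuclease, a pair of exons 4 and 7 differed by -0.173, with levels of 0.881, 0.855 and 0.938 in WT libraries and 0.824, 0.723 and 0.608 in MT (limma, adjusted p = 0.756). In RAD54L, a translocase that acts in strand exchange, coding exon 6 had 0.956, 0.956 and 1 in WT libraries and 0.932, 0.943 and 0.584 in MT, a difference of -0.151 that was -0.0332 without MT replicate 3. The largest difference of these 11 events, -0.385, was that of a retained intron of RAD51D, an HR factor, at 10.4 reads, with levels of 0.818, 0.714 and 0.750 in WT, against 0.412, 0.4 and 0.316 in MT libraries (limma, adjusted p = 0.856).

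DNA:RNA hybrids over the same gene bodies were counted in Nalm-6, a human leukemic B cell line with the same SF3B1 genotypes. DRIP-seq, which precipitates hybrids with the S9.6 antibody, was available for 2 libraries per genotype, each with a library from DNA treated with RNase H1 (RNH1). An untreated peak was taken as bona fide when the RNH1-treated library with its genotype and number had no peak over any of its bases. This readout comes from another cell line and was not joined with the splicing values. Over the 9 gene bodies, the WT libraries had 53 and 37 bona fide peaks, while the MT libraries had 47 and 55. The log2 ratio of MT to WT was 0.18 (two-sided exact permutation test, p = 0.667, where 2 libraries against 2 cannot go below 0.333). Per 100000 bona fide peaks of the library, this was 52.3 and 42.9 for WT but 37.7 and 36.2 for MT, so scaling to all peaks turned the direction. The lists give no read numbers, and the depth is unknown.

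Among single genes, FANCA had no bona fide peak in either WT library, with 3 and 5 in MT, and RBBP8 had 7 and 5 in WT, with 10 and 10 in MT. BRIP1 went the other way, with 17 and 14 peaks for WT, against 10 and 9 for MT. These 3 of the 9 genes had libraries apart in whole counts, and the share of all genes with libraries apart was not counted. For a gene with libraries apart, a two-sided exact permutation test of 2 libraries against 2 cannot go below 0.333. Per 100000 bona fide peaks of the library, RBBP8 had 6.91 and 5.80 for WT against 8.02 and 6.59 for MT, which overlap, while BRIP1 stayed apart at 16.8 and 16.2 against 8.02 and 5.93, and FANCA had 2.41 and 3.29 for MT. Without the RNH1 subtraction, BRIP1 turned in direction in whole counts, with 21 peaks in each WT library and 23 in each MT library, but not per 100000 untreated peaks, at 16.97 and 16.02 for WT against 9.05 and 7.76 for MT. FANCI had 6 and 5 peaks in WT, with 9 and 6 in MT. FANCD2 had 6 and 4 against 5 and 7, and BRCA1 4 and 1 against 3 and 7. PALB2 had a single peak in a WT library and none in the others. Over all 9 genes and with no subtraction, the WT libraries had 61 and 57 peaks, while the MT libraries had 102 and 116. The log2 ratio was then 0.89 (two-sided exact permutation test, p = 0.333). Per 100000 untreated peaks, of which WT libraries had 123720 and 131096 and MT libraries 254170 and 296533, the genes had 49.3 and 43.5 for WT against 40.1 and 39.1 for MT, so here too the scaling turned the direction (log2 ratio -0.23).

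**Figure D5:**
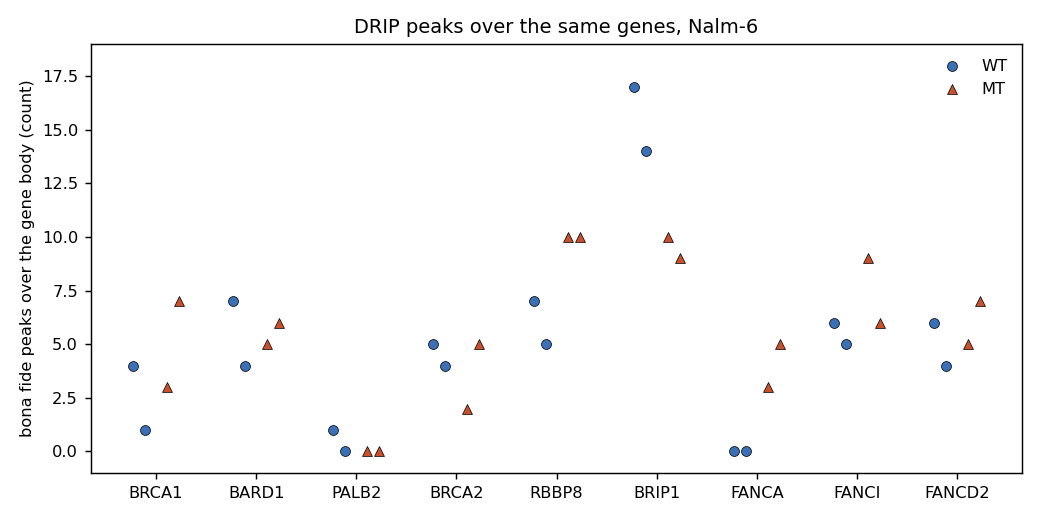
Bona fide DRIP peaks over each gene body (count, y axis) in the 2 WT (circles) and 2 MT (triangles) Nalm-6 libraries. In these counts, not scaled to the library, BRIP1 shows more peaks in both WT libraries (17 and 14, against 10 and 9), FANCA and RBBP8 more in both MT libraries. Scaled to 100000 peaks of the library, RBBP8 overlaps and BRIP1 stays apart (16.8 and 16.2 in WT, against 8.02 and 5.93 in MT). With no RNH1 subtraction, BRIP1 has 21 peaks in each WT library against 23 in each MT library. Scaled, these are 16.97 and 16.02 against 9.05 and 7.76.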

How the data were processed

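RNA-Seq libraries of HEK293T cells (3 WT, 3 MT) and DRIP-seq libraries of Nalm-6 cells (2 per genotype and treatment) took their groups from the labels. Per the labels, the submitters' processing notes name STAR, StringTie, BWA and GRCh38 (hg38). Methods name the rMATS model for splicing, and BWA-MEM and MACS2 for DRIP-seq. The inclusion level is a fraction that the authors deposited with 3 decimals, beside junction counts of each form, mean reads (for MT over all 6 listed values) and their own p-values and level differences, which were not used. The authors' peak lists also give a fold enrichment (ratio over background), −log10 p and q values and a score. Of these, only positions and, in an alternative, the fold enrichment of the deposited lists were used.

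Levels were compared by limma 3.58.1 (R 4.3.3) after an arcsine square-root transform, the variance following log2 mean reads, with Benjamini-Hochberg adjustment over 83581 events that varied, had a level in all 6 libraries and at least 10 mean reads. Calls needed an adjusted p under 0.05 and a difference above 0.1. The 95% intervals come from a second limma fit, on untransformed levels, and can disagree with the p-values. For RBBP8 exons 17 and 18 the interval excluded 0 at an unadjusted p of 0.171 (limma). For the 89-base exon of BRIP1 it included 0 at an unadjusted p of 0.0143 (limma). A quasi-binomial test on junction counts, its dispersion moderated over events and held at 1 or more, was added after seeing the data. It used counts that gave back the level within 0.002, as 77.4% did for the MT column listed last and 96.7% or more for the others. The comparisons were also run on simulated data with equal depth in every library and only changes larger than 0.1. That simulation does not show what is detectable near 0.1 in the real libraries. Form lengths showed, in 8728 of 8728 exon pairs with forms of different length, that the level of a pair is that of the exon transcribed first. Positions and exon numbers follow the canonical transcripts of GENCODE 44, and sequences GRCh38. Equal replicate numbers were not taken as pairs.

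Named were, per gene, the event with the largest difference at 20 or more reads and that with the most reads, all events with libraries apart by more than 0.1, and up to 6 such events of other pathway genes. The 8 alternative 3′ splice sites were named as a class, and further listings, donors, exons and the RAD51D intron after their values were seen. The genes and lists were chosen with earlier results of these data known. A gene of the pathway list and a splice site sequence are not reported here.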

Additional observations from a re-analysis of the deposited data

How the results depend on the processing

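The count of 0 called events in the 9 genes was 0 under all alternatives run, which were a logit or no transform, other read minimums, no variance trend, constant events kept, the replicate block, each library left out and junction counts. Over all events, 26 were called, but 0 with a logit, 0 with untransformed levels and 0 without a variance trend, 34 on junction counts, of which 19 were shared, and 3 to 13 with a library left out. With the number in the column names as a replicate block, 12 were called, and the block changed no call in the 9 genes. The equal-number correlations of deviations from the group means were 0.0997, 0.0974 and 0.0271. Unequal numbers gave -0.103 to 0.0119, so each library correlated best with its own number, a hint from the data and not from the labels. For the other pathway genes the junction counts called 1 event, in RAD51AP1, with an adjusted p of 0.0491, against 0 in all other settings. The 4 events with libraries apart became 4 to 10 when a library was left out, 7 without WT 2 and 10 without MT 1. Of 347 values of the 25 named events under alternatives, 337 kept direction and side of the threshold, 1 passed it (RAD51AP1), and 9 turned in sign, all of small differences and with a library left out: BARD1 exon 4 (0.0035 without WT 2, 0.00233 without MT 3, range -0.025 to 0.0035), the BRCA2 pair of exons 3 and 4 (0.00783 without MT 1, range -0.0782 to 0.00783), FANCA exon 8 (-0.002 without WT 1, range -0.002 to 0.008), FANCD2 exon 3 (0.000667 without MT 2, range -0.00333 to 0.000667), PALB2 exon 7 (-0.00633 without WT 3, -0.000833 without MT 2 or MT 3, range -0.00633 to 0.00867) and the RBBP8 pair of exons 16 and 17 (0.00283 without WT 3, range -0.0507 to 0.00283). The difference was taken from untransformed levels in every setting, so its direction could change only with a library left out. The other alternatives could move only the adjusted p, so their rows do not bear on direction. The lowest adjusted p of a named event of the 9 genes over the alternatives was 0.628. The DRIP log2 ratio of 0.18 turned to -0.35 with peaks of at least 4-fold enrichment and to -0.0555 without WT replicate 2, within a range of -0.0555 to 0.46 with a library left out. It was -0.36 per library total and -0.23 for all untreated peaks per library total, 2 scalings chosen after seeing the data. With 3 libraries per genotype, differences of 0.1 were not excluded for the events whose intervals reach past 0.1. An interval within 0.1 of 0 does not show that the test would have called such a difference. Even the RAD51AP1 difference of 0.244 was not called by limma (adjusted p = 0.331).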
